A study of Oryza sativa with 35 samples.

Results

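The SQUAMOSA promoter-binding protein-like (SPL) genes described here are 10 rice loci: OsSPL14 (LOC_Os08g39890), OsSPL17 (LOC_Os09g31438), OsSPL7 (LOC_Os04g46580), OsSPL13 (LOC_Os07g32170), OsSPL16 (LOC_Os08g41940), OsSPL18 (LOC_Os09g32944), OsSPL3 (LOC_Os02g04680), OsSPL12 (LOC_Os06g49010), OsSPL2 (LOC_Os01g69830) and OsSPL6 (LOC_Os03g61760). They were chosen by locus identifier as SPL genes grouped under panicle branching, not by a rule on measured values. Earlier results of these data were known when they were chosen. They are 10 of 55801 loci in the count table and 10 of 19 SPL genes listed. Messenger RNA of rice inflorescence meristems was measured by CEL-Seq2, which tags the 3' ends of transcripts with unique molecular identifiers (UMIs), in 35 libraries. The plants were the cultivar Koshihikari and NIL-Gn1, a near-isogenic line named for the grain number locus Gn1, both grown in short days in climate chambers, and the labels name no treatment. Both lines were sampled at 4 tissue codes. For R1 there are 5 Koshihikari and 8 NIL-Gn1 libraries, for R2 again 5 and 8, for R4 there are 3 and 1, and for R5 there are 3 and 2. The labels define neither the codes nor what NIL-Gn1 carries. They do not say that libraries are separate plants, and the spread behind each p-value may be technical. R1 and R2 together are called early below, and R4 and R5 together late, as names for the codes only.

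SPL proteins are plant transcription factors that bind DNA through the SBP domain. In rice, most of their messengers are targets of the microRNA miR156, which is abundant in young shoots and declines as the plant matures, and some are also targets of miR529. OsSPL14, known as IPA1 or WFP, is a regulator of plant architecture whose gain-of-function alleles give fewer tillers and a more branched panicle. OsSPL7 and OsSPL17 are its relatives in the control of tillering and panicle branching. OsSPL13 (GLW7), OsSPL16 (GW8) and OsSPL18 are known for their effects on grain size. OsSPL6 is the member without a miR156 target site.

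Libraries held 76743 to 375071 UMIs, with a median of 133163, and NIL-Gn1 R5 replicate 2 was the shallowest. Intervals and limits from counts cover counting error only. Of the 10 genes, 8 passed the filter on low counts, which asked for about 75.1 CPM in at least 1 library. OsSPL16 with 24 UMIs and OsSPL18 with 125 UMIs over all libraries did not pass. Levels are counts per 1000000 (CPM) of the effective library size, that is the UMIs in tested loci times the TMM scaling factor, as mean ± SD over libraries. On this scale 3 counts, the limit taken for a count of 0, equal 8.66 to 45.7 CPM per library. UMI counts of 3' ends were not divided by transcript length, and levels of different genes were not ranked. OsSPL14 and OsSPL17, like OsSPL16 and OsSPL18, are close paralogs. The authors' rule for reads that match more than 1 locus is not given in the sources used here, so the split of reads within these pairs is uncertain. The summed shoot meristem markers, OSH1 and its relatives among them, lay between 343 and 1119 CPM in every library. In that list FON2 had no UMI in any library, and OSH43 and OsWUS had 1 UMI each. Summed spikelet and floral organ markers reached at most 52.1 CPM in any library, and OsMADS3, OsMADS58 and OsMADS13 had no UMI. In a principal component analysis Koshihikari R2 replicates 1, 4 and 5 and NIL-Gn1 R5 replicate 2 stood apart from the other libraries.

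In these meristems OsSPL12, targeted by miR156 like every member but OsSPL6, fell 2.33-fold between early and late Koshihikari libraries. It was the 1 called gene of the 8 tested, in a comparison that called 16.5% of all tested loci. The branching genes OsSPL14, OsSPL17 and OsSPL7 and the grain size gene OsSPL13 were present in all 35 libraries and passed no test between lines or tissue codes. Over 14 comparisons the 8 genes gave 112 tests, of which 10 (8.93%) had an unadjusted p under 0.05 and 1 an adjusted p under 0.05 (edgeR quasi-likelihood test, Benjamini-Hochberg over 7406 loci). Over all loci, 5.93% to 29.4% had an unadjusted p under 0.05 in a single comparison. The members' share is pooled over the 14 comparisons, so it is not a like measure to these. DESeq2 and limma-voom also called OsSPL12 in that comparison and no member in the other 13.

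**Figure D1:**
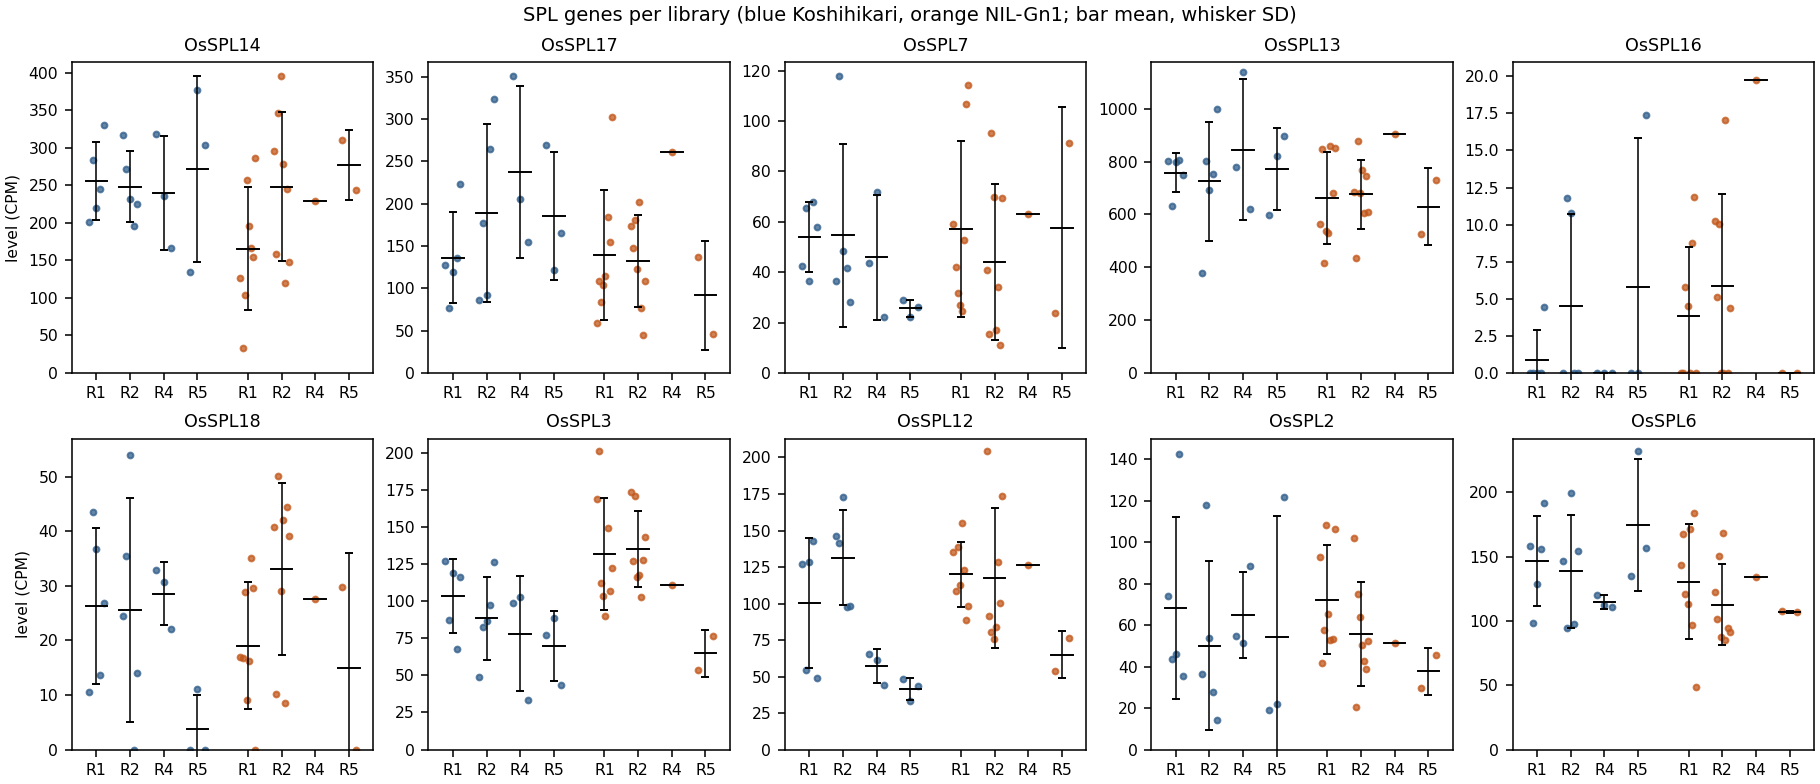
Level of each of the 10 SPL genes in CPM (linear axes, each from 0) by line and tissue code. Points are libraries, bars are means and whiskers are SDs, cut at 0 and absent for the single NIL-Gn1 R4 library. OsSPL12 lies at 33.2 to 65.8 CPM in the Koshihikari R4 and R5 libraries and at 49.1 to 173 CPM at R1 and R2. For each of the 10 genes the early and late libraries of a line overlap.

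OsSPL14 ran at overlapping levels in the 4 Koshihikari groups. Its levels were 201, 283, 220, 244 and 330 CPM in the R1 libraries and 318, 271, 232, 195 and 225 CPM in the R2 libraries. They were 318, 236 and 166 CPM at R4 and 135, 376 and 304 CPM at R5. The ranges of the 4 groups overlap, and the means lay between 240 ± 76.0 CPM (SD, n = 3) at R4 and 272 ± 124 CPM (SD, n = 3) at R5. In NIL-Gn1 R1 the lowest, median and highest of 8 libraries were 33.5, 160.3 and 286 CPM, and at R2 they were 120, 261 and 396 CPM. The single R4 library had 229 CPM, and the R5 libraries had 310.2 and 244 CPM. NIL-Gn1 R1 thus had the lowest mean of the 8 groups, 165 ± 81.7 CPM, and its libraries spread over the widest ratio, overlapping every other group.

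The lines were then compared at each tissue code. At R1, 0 of the 8 tested genes were called, where 0.675% of all tested loci were. OsSPL14 was nearest to a call there, with a log2 fold change of −0.66 (SE 0.310, 95% interval −1.29 to −0.03, adjusted p 0.444). At R2 its log2 difference was −0.00 (95% interval −0.65 to 0.64), and over R1 and R2 together −0.33 (95% interval −0.78 to 0.12, adjusted p 0.536). The interval at R1 and R2 together excludes a fall of 1 log2 unit, but not smaller ones. The R1 difference was not shown to differ from that at R2, since the interaction was 0.66 (SE 0.443, adjusted p 0.894).

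OsSPL17 varied widely between libraries of a group. In Koshihikari its means were 136 ± 53.7 CPM (n = 5) at R1, 188 ± 105 CPM (n = 5) at R2, 237 ± 102 CPM (n = 3) at R4 and 185 ± 75.9 CPM (n = 3) at R5. In NIL-Gn1 they were 139 ± 76.7 CPM (n = 8) at R1 and 132 ± 54.3 CPM (n = 8) at R2, with 261 CPM in the R4 library and 45.7 and 137 CPM in the R5 libraries. The groups overlap, except that Koshihikari R4, at 155 CPM or above, lies above NIL-Gn1 R5, and that the single NIL-Gn1 R4 library lies above all libraries of Koshihikari R1, NIL-Gn1 R2 and NIL-Gn1 R5. Its line difference over R1 and R2 was −0.27 on the log2 scale (95% interval −0.83 to 0.29, adjusted p 0.713).

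OsSPL7, the third branching gene, rested on 2 to 19 UMIs per library. Its group means ran from 25.7 ± 3.38 CPM in Koshihikari R5 (n = 3) to 63.2 CPM in the NIL-Gn1 R4 library. In Koshihikari R2 the libraries had 36.6, 118, 48.5, 41.8 and 28.1 CPM, so that replicate 2 stood above the others. Its line difference over R1 and R2 was −0.12 (95% interval −0.71 to 0.47, adjusted p 0.900). The summed level of OsSPL14, OsSPL17 and OsSPL7 ran from 361 ± 164 CPM in NIL-Gn1 R1 (n = 8) to 553 CPM in the NIL-Gn1 R4 library, which lies within the range of NIL-Gn1 R1, 184 to 703 CPM.

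OsSPL13 had the most UMIs of the 10 genes, 3395 in all. Its group means ran from 628 ± 146 CPM in NIL-Gn1 R5 (n = 2) to 905 CPM in the NIL-Gn1 R4 library, a ratio of 1.44. The line difference over R1 and R2 was −0.16 (95% interval −0.41 to 0.09, adjusted p 0.613). Late against early it differed by 0.13 in Koshihikari (95% interval −0.20 to 0.45) and by 0.17 in NIL-Gn1 (95% interval −0.23 to 0.56). Each of these intervals lies within a change of 1 log2 unit either way.

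OsSPL16 and OsSPL18, the other grain size genes, were near the counting limit and were left out of the main fit. OsSPL16 had 4 UMIs in early Koshihikari and 13 in early NIL-Gn1 libraries, a ratio per total UMI of 1.46 with an exact 95% counting interval of 0.452 to 6.16. It had 0 UMIs in Koshihikari R4, which allows up to 10.7 CPM over the group, and 0 in NIL-Gn1 R5, which allows up to 12.9 CPM. OsSPL18 had 33 UMIs in early Koshihikari and 71 in early NIL-Gn1 libraries, a ratio of 0.969 (0.632 to 1.51). Late against early, OsSPL18 had a ratio of 0.514 (0.216 to 1.10) in Koshihikari and 0.879 (0.434 to 1.63) in NIL-Gn1. The line interval of OsSPL18 lies within a change of 1 log2 unit either way, as far as counting error goes. The other intervals reach beyond that. In an edgeR fit without the filter, neither gene was called in any comparison. OsSPL18 there had log2 fold changes of −1.36 late against early in Koshihikari (adjusted p 0.292) and −2.76 at R5 against R4 (adjusted p 0.932).

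OsSPL3, a member of the miR156-targeted group, had the largest line difference over R1 and R2 among the 8 tested genes. In Koshihikari its libraries had 127, 87.2, 119, 67.9 and 116 CPM at R1 and 48.9, 82.6, 86.3, 97.6 and 126 CPM at R2. In NIL-Gn1 the lowest, median and highest of 8 libraries were 89.7, 118 and 201 CPM at R1 and 102, 128 and 174 CPM at R2. The NIL-Gn1 libraries lay higher on the whole, and the ranges of the lines overlap at both codes. The log2 fold change was 0.47 over R1 and R2 (SE 0.194, 95% interval 0.09 to 0.85) and 0.63 at R2 (SE 0.289, 95% interval 0.06 to 1.20). The adjusted p-values were 0.209 and 0.399, so neither was called. At R2, 0 of the 8 genes were called against 0.5% of tested loci, and over R1 and R2 together 0 of 8 against 2.32%.

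At R4, where NIL-Gn1 has 1 library and the fit assumes that it varies like the other groups, 0 of 8 genes were called against 0.149% of loci. OsSPL12 differed most there, by 1.13 on the log2 scale (SE 0.553, adjusted p 0.647), with 126 CPM in the NIL-Gn1 library and 65.8, 61.5 and 44.3 CPM in the Koshihikari libraries. At R5, 0 of 8 genes were called against 0.351% of loci. In the 5 comparisons of the lines, the number of members with an unadjusted p under 0.05 was 1, 1, 1, 0 and 1 at R1, R2, R4, R5 and over R1 and R2. The shares over all loci were 10.5%, 10%, 7.41%, 10.1% and 14%. The median log2 difference of the 8 genes was −0.06 at R1, −0.17 at R2 and −0.14 over both, where the medians of all tested loci were 0.01, −0.00 and 0.02. At R4 it was 0.18 and at R5 −0.25, with −0.01 and 0.02 over all loci.

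**Figure D2:**
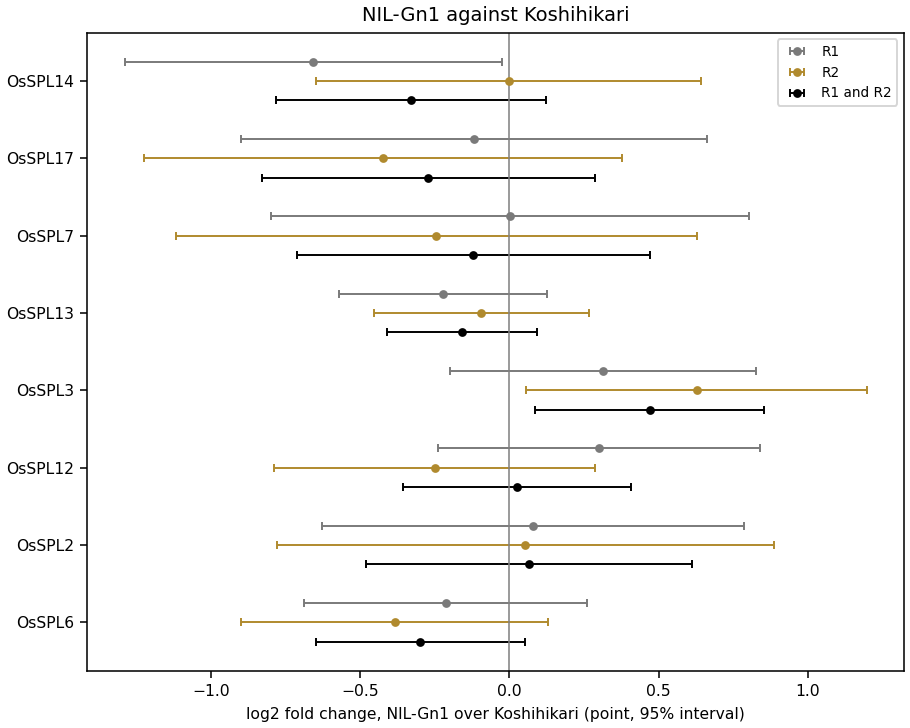
Log2 fold change of NIL-Gn1 over Koshihikari for the 8 tested SPL genes at R1, at R2 and over both, with points as estimates and whiskers as 95% intervals. The intervals of OsSPL3 at R2 (0.06 to 1.20) and over both codes (0.09 to 0.85) lie above 0 and that of OsSPL14 at R1 (−1.29 to −0.03) below it, and after adjustment over all loci none was called.

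Between R1 and R2 the SPL genes showed no called difference in either line. In Koshihikari 0 of 8 were called, as were 0 of all loci (0%), with 0 members and 439 loci (5.93%) at an unadjusted p under 0.05. In NIL-Gn1 0 of 8 were called against 0.081% of loci. OsSPL14 was higher at R2 than at R1 in NIL-Gn1 by 0.58 (SE 0.269, 95% interval 0.03 to 1.13, adjusted p 0.612). For the line by R2-to-R1 interaction, 0 of 8 genes and 0% of loci were called, with 0 members and 446 loci (6.02%) at an unadjusted p under 0.05.

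OsSPL12 fell in late Koshihikari libraries. At R1 the libraries had 127, 54.5, 128, 143 and 49.1 CPM, and at R2 they had 147, 142, 173, 97.6 and 98.4 CPM. At R4 they had 65.8, 61.5 and 44.3 CPM, and at R5 48.1, 33.2 and 43.4 CPM. All 6 late libraries lay below the early median and 8 of 10 early libraries lay above the highest late one, while R1 replicates 2 and 5 fell in the late range. The mean was 116 ± 40.4 CPM over 10 early libraries and 49.4 ± 12.2 CPM over 6 late libraries. The log2 fold change was −1.22 (SE 0.331, 95% interval −1.88 to −0.57, edgeR adjusted p 0.00237), on 133 early and 29 late UMIs. In late against early Koshihikari 1 of the 8 genes was thus called, beside 16.5% of all tested loci (7.6% lower). The median log2 fold change of the 8 genes was −0.04 and that of all loci −0.06.

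In NIL-Gn1, OsSPL12 had 88.8, 118 and 155 CPM as the lowest, median and highest of 8 R1 libraries and 75.7, 95.9 and 204 CPM at R2. The R4 library had 126 CPM and the R5 libraries 53.7 and 76.2 CPM, so that the late libraries overlap the early ones. The late against early change was −0.42 (SE 0.313, 95% interval −1.04 to 0.20, adjusted p 0.577). The change was not shown to differ between the lines, with an interaction of 0.81 (SE 0.455, 95% interval −0.10 to 1.71, adjusted p 0.441). In NIL-Gn1 0 of 8 members were called late against early, beside 3.93% of loci, and for the interaction 0 of 8 beside 0.311%.

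**Figure D3:**
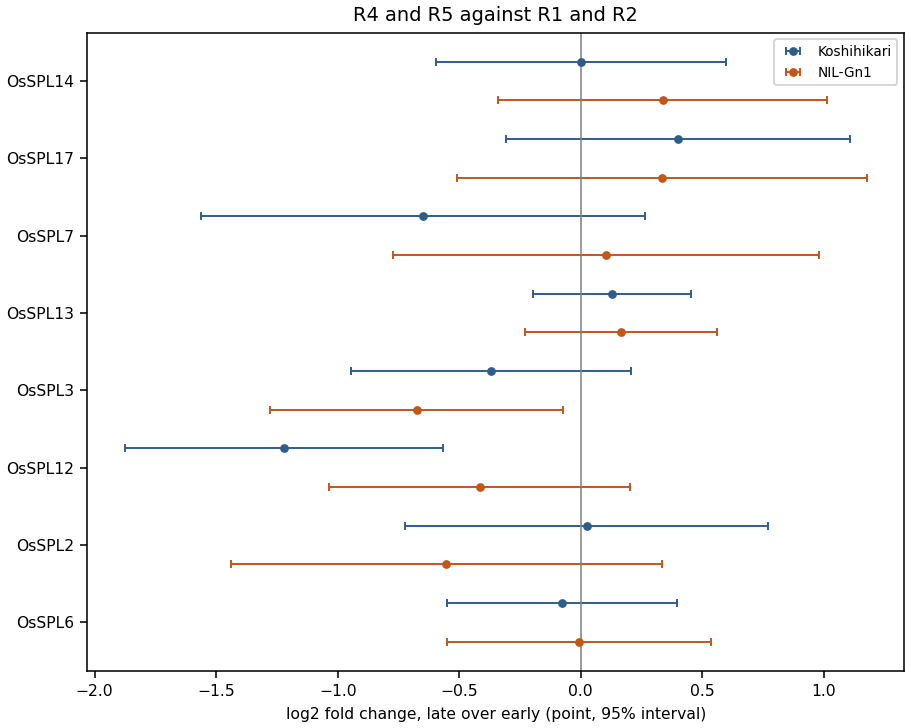
Log2 fold change of late (R4 and R5) over early (R1 and R2) libraries for the 8 tested SPL genes in each line, with points as estimates and whiskers as 95% intervals. The Koshihikari interval of OsSPL12 (−1.88 to −0.57) lies below 0 and was called. The NIL-Gn1 interval of OsSPL3 (−1.28 to −0.07) also lies below 0 but was not called, while those of OsSPL14 and OsSPL13 straddle 0 in both lines.

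Step by step, OsSPL12 was lower at R4 than at R2 in Koshihikari by a log2 fold change of −1.24 (SE 0.452, 95% interval −2.14 to −0.35), with an adjusted p of 0.0620. Thus 0 of 8 genes were called at R4 against R2, beside 6% of loci, and OsSPL12 was called there without Koshihikari R2 replicate 5 (adjusted p 0.0499). From R4 to R5 in Koshihikari 0 of 8 genes and 0% of loci were called, with 0 members and 536 loci (7.24%) at an unadjusted p under 0.05. OsSPL12 had 57.2 ± 11.4 CPM (n = 3) and 41.6 ± 7.63 CPM (n = 3) at these codes. From R2 to R5 in NIL-Gn1 0 of 8 genes were called, beside 2.52% of loci. OsSPL3 at −1.14 (SE 0.449, adjusted p 0.174) and OsSPL12 at −0.90 (SE 0.465, adjusted p 0.392) had the lowest estimates there.

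Markers of other tissues moved with the same comparison. Summed green leaf markers lay at 148 to 478 CPM in early and 570 to 1824 CPM in late Koshihikari libraries, which do not overlap. In NIL-Gn1 they lay at 108 to 799 and 379 to 853 CPM. All 4 markers were detected, but CAB1R and CAB2R made up nearly the whole sum. In Koshihikari, RBCS2 had 2 early and 3 late UMIs, and RBCS3 had 1 and 1. Summed lateral organ markers lay at 618 to 962 CPM in early and 888 to 1203 CPM in late Koshihikari libraries, a sum whose members moved apart. TOB1 rose from a median of 313 CPM (251 to 446, n = 10) to 634 CPM (482 to 789, n = 6, adjusted p 6.68e-07). DL fell from a median of 189 CPM (70.3 to 423) to 95.2 CPM (33.2 to 164, adjusted p 0.0486), and its early and late libraries overlapped. Summed shoot meristem markers lay at 455 to 923 CPM in early and 343 to 695 CPM in late Koshihikari libraries. Of 5 tested shoot meristem markers, 2 were called lower and 0 higher there (smallest edgeR adjusted p 0.00979), beside 7.6% of all tested loci called lower. The median log2 fold change of these 5 markers was −0.63, against −0.06 over all tested loci. The list did not move as a whole, with 4 estimates below 0 and 1 above (−0.94 to 1.13). OSH1 had 270 ± 93.4 CPM in 10 early and 229 ± 62.2 CPM in 6 late Koshihikari libraries. FON1, which passed the filter only through late libraries, had 17.0 ± 13.6 and 35.9 ± 45.5 CPM there. LOG, below the filter, had 5 early and 12 late UMIs. The part of tissue makeup in the fall of OsSPL12 was not tested, and in such bulk samples fewer cells of a type and less RNA per cell cannot be told apart. With Koshihikari R2 reduced to the replicates that did not stand apart, 2 and 3, the log2 fold change of OsSPL12 was −1.32 (adjusted p 0.00196). Without NIL-Gn1 R5 replicate 2 its change in NIL-Gn1 was −0.51 (adjusted p 0.541) and the interaction 0.71 (adjusted p 0.589).

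No stage difference was called for the remaining members. OsSPL3 had 95.9 ± 26.2 CPM in 10 early and 73.9 ± 29.1 CPM in 6 late Koshihikari libraries (log2 fold change −0.37, adjusted p 0.404). In NIL-Gn1 it had 133 ± 31.4 CPM in 16 early and 80.2 ± 28.7 CPM in 3 late libraries (−0.68, SE 0.305, adjusted p 0.235), where 12 of 16 early libraries lay above the highest late one. Without NIL-Gn1 R5 replicate 2 that change was −0.77 (adjusted p 0.232). OsSPL2 group means ran from 37.8 ± 11.2 CPM in NIL-Gn1 R5 (n = 2) to 72.3 ± 26.2 CPM in NIL-Gn1 R1 (n = 8). OsSPL6, which lacks a miR156 site, ran from 107 ± 0.502 CPM in NIL-Gn1 R5 (n = 2) to 175 ± 51.3 CPM in Koshihikari R5 (n = 3). Its change late against early was −0.08 in Koshihikari (95% interval −0.55 to 0.40) and −0.01 in NIL-Gn1 (95% interval −0.55 to 0.54). OsSPL7 differed late against early by −0.65 in Koshihikari (95% interval −1.56 to 0.26, adjusted p 0.329), and OsSPL17 by 0.40 (95% interval −0.31 to 1.11, adjusted p 0.473).

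With the 8 group means of a gene placed in order, no gap between neighbours exceeded the larger SD of the neighbours for 8 of the 10 genes. The exceptions were OsSPL12, with 1 of 7 gaps, that between Koshihikari R4 and R5, and OsSPL16, with 1 gap below the single NIL-Gn1 R4 library. For OsSPL12 the order from the highest mean was Koshihikari R2, NIL-Gn1 R4, R1 and R2, Koshihikari R1, NIL-Gn1 R5, and Koshihikari R4 and R5, with a ratio of highest to lowest of 3.16. For OsSPL14 that ratio was 1.67 and for OsSPL6 1.63.

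The 8 tested genes differed in how far libraries of the same group varied. The biological coefficient of variation, the spread between libraries of a group beyond counting noise, was 33.0% for OsSPL14 and 40.6% for OsSPL17. The trend for loci of like level was 18.1% and 19.1%, and 97% and 98.3% of like loci had a lower value. OsSPL3 had 18.0%, with 9.3% of like loci lower, and OsSPL12 20.8%, with 51.3% lower. The branching genes OsSPL14 and OsSPL17 were thus measured with more UMIs than OsSPL12, 1115 and 738 against 520, and had larger residual spread. These values describe the libraries and were not tested.

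**Figure D4:**
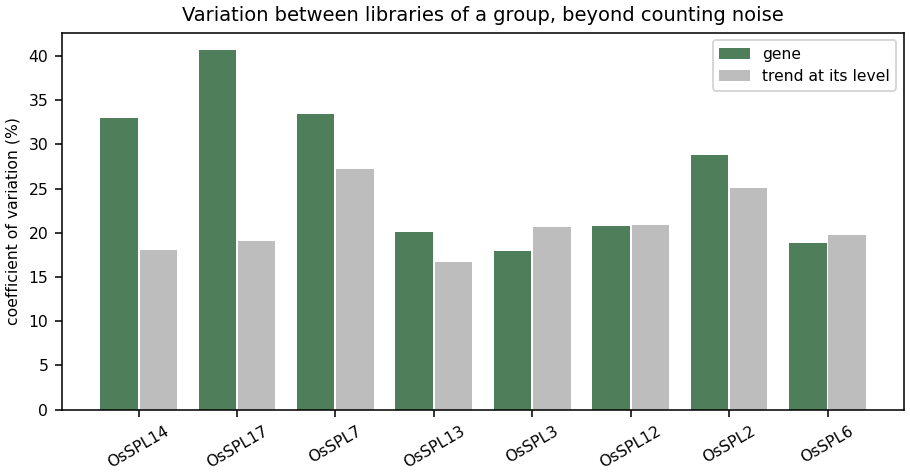
Biological coefficient of variation in percent for the 8 tested SPL genes (green) beside the trend of all tested loci at the same level (grey), with bars from 0. OsSPL14 and OsSPL17 stand at 33.0% and 40.6% against trends of 18.1% and 19.1%, while OsSPL3, OsSPL12 and OsSPL6 lie at or below theirs.

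Across the 35 libraries, the loci whose log2 CPM was most like that of OsSPL13 were LOC_Os07g08430 (Pearson r = 0.632), LOC_Os01g42070 (r = 0.602) and LOC_Os03g27310 (r = 0.601). For OsSPL14 they were LOC_Os04g45650 (r = 0.589), LOC_Os04g42470 (r = 0.579) and LOC_Os04g58390 (r = 0.574). They are the highest of 7398 loci, whose points share libraries and depth, and are given as a description.

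Of 9 other SPL genes listed, 4 were tested, and their course gives a comparison for the 10. OsSPL10 was higher in late libraries of both lines. It had 1 to 4 UMIs in each of the 10 early Koshihikari libraries, at 4.46 to 42.2 CPM, then 471, 431 and 122 CPM at R4 and 693, 675 and 339 CPM at R5. In NIL-Gn1 its median was 21.5 CPM at R1 and 13.6 CPM at R2, with 601 CPM in the R4 library and 746 and 259 CPM in the R5 libraries. No late library overlaps an early library of its line, and the share of all loci for which this holds was not counted. Pooled UMIs per total UMI were 31.6 times as high late as early in Koshihikari and 23.5 times in NIL-Gn1. These ratios leave out the spread between libraries and are given as a description. OsSPL10 passed the filter on low counts through its late libraries alone, so it had to differ, and no p is given for its course.

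OsSPL15 was higher at R4 than at R2 in Koshihikari, with 153 ± 48.6 CPM (n = 3) against 65.3 ± 27.9 CPM (n = 5). The log2 fold change was 1.30 (SE 0.384, edgeR adjusted p 0.0224). The adjusted p was 0.0766 without Koshihikari R2 replicate 3, and 0.0816 and 0.160 without R4 replicates 2 and 3. Koshihikari R1 had 107 ± 9.39 CPM (n = 5) and R5 113 ± 12.8 CPM (n = 3), so R2 had the lowest mean of that line. In NIL-Gn1 OsSPL15 had 96.8 ± 17.9 CPM at R2 (n = 8), 103 CPM in the R4 library and 119 ± 25.3 CPM at R5 (n = 2). Late against early, OsSPL15 was not called in either line. OsSPL1 and OsSPL9 were not called in any of the 14 comparisons. Below the filter, OsLG1, the SPL gene required for the ligule, had 1 UMI in 10 early and 24 in 6 late Koshihikari libraries, a ratio of 45.2 with an exact 95% counting interval of 7.38 to 1860. In NIL-Gn1 it had 16 UMIs in 16 early and 29 in 3 late libraries, a ratio of 9.42 (4.95 to 18.6).

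**Figure D5:**
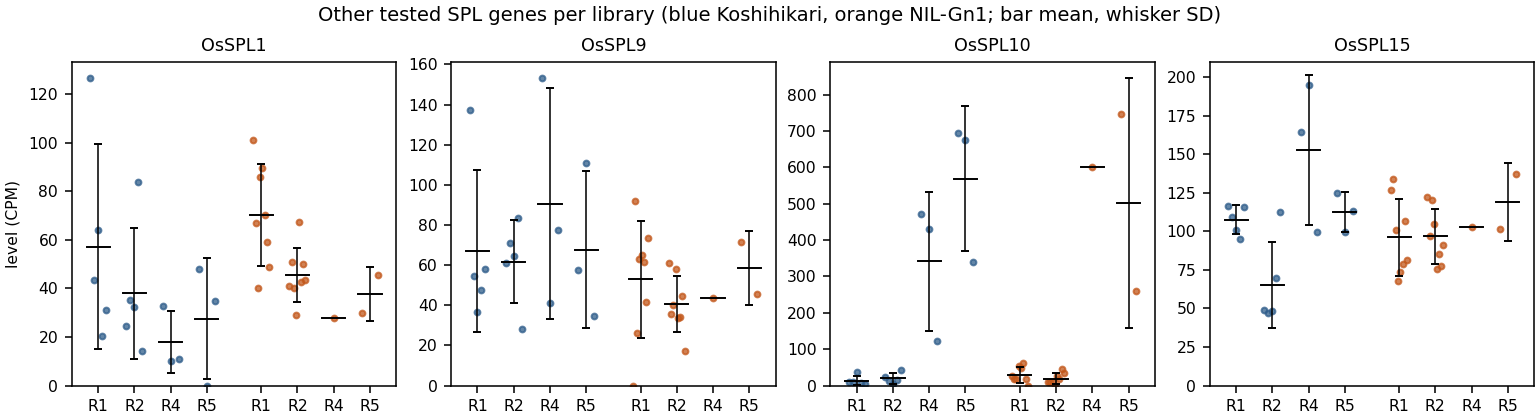
Level in CPM (linear axes from 0) of the 4 other tested SPL genes by line and tissue code, with libraries as points, means as bars and SDs as whiskers cut at 0. OsSPL10 lies at or below 61.4 CPM in every early library and at 122 CPM or above in every late library.

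Of 7 listed regulators and partners of SPL proteins, 6 were tested. D14, the strigolactone receptor, was lower in NIL-Gn1 over R1 and R2, with a log2 fold change of −1.03 (SE 0.317, adjusted p 0.0497). That call was lost in 25 of 34 alternatives, among them DESeq2, limma-voom and 18 of the 26 that left out 1 library, with adjusted p-values of 0.0231 to 0.327. SLR1, the DELLA repressor of gibberellin signalling, was not called in any comparison, and neither was D53, the repressor of strigolactone signalling.

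Of 9 listed genes reported downstream of SPL proteins or beside them in panicle branching, 5 were tested. In late against early Koshihikari libraries, DEP1 rose, TAW1 fell, and NL1 and PLA1 were not called. DEP1, a G protein subunit of panicle architecture, rose by 0.98 on the log2 scale (SE 0.255, adjusted p 0.00277, and 0.0588 without Koshihikari R5 replicate 2). TAW1, which delays the switch from branch to spikelet formation, fell by 2.54 (SE 0.175, adjusted p 1.41e-26), from 934 ± 85.0 CPM at R1 (n = 5) and 888 ± 148 CPM at R2 (n = 5) to 167 ± 107 CPM at R4 (n = 3) and 146 ± 61.9 CPM at R5 (n = 3). OsMADS34 (PAP2), a MADS-box gene of inflorescence and spikelet identity, also passed the filter only through late libraries, and its values are given with no test. It had 12.7 ± 13.2 CPM in 10 early and 64.1 ± 33.7 CPM in 6 late Koshihikari libraries, and 6.61 ± 7.19 CPM in 16 early and 49.1 ± 16.8 CPM in 3 late NIL-Gn1 libraries.

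In NIL-Gn1, TAW1 fell late against early and DEP1, NL1 and PLA1 were not called. TAW1 fell by 0.80 (SE 0.166, adjusted p 0.000589), from 839 ± 120 CPM at R1 (n = 8) and 768 ± 74.7 CPM at R2 (n = 8) to 442 CPM in the R4 library and 489 ± 84.2 CPM at R5 (n = 2). Without NIL-Gn1 R5 replicate 1 the adjusted p was 0.0513. The change of TAW1 differed between the lines, with an interaction of 1.73 (SE 0.241, adjusted p 1.32e-07). TAW1 was higher in NIL-Gn1 at R5 by 1.68 (SE 0.295, adjusted p 0.000135). At R4 the estimate was 1.41, and 1.28 and 1.08 without Koshihikari R4 replicates 2 and 3. It rests on the single NIL-Gn1 R4 library, which also enters the late against early change and the interaction. The edgeR call at R4 was lost in 3 of 11 alternatives, the replicate block among them.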

How the data were processed

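UMI counts of 55801 loci in 35 libraries were used as the authors deposited them, without normalization. The libraries were made from 100 pg of RNA with 11 to 15 PCR cycles, per the labels' protocols. Bowtie2 and Subread 2.1 are named in the submitters' processing notes, and their settings, the genome build and the annotation are not given in the sources used here. All libraries entered a single edgeR 4.0.16 model in R 4.3.3 (filterByExpr, TMM factors, robust quasi-likelihood F-test), which had a coefficient per group and 8 groups. The 7406 tested loci held 86.7% of UMIs, and the common biological coefficient of variation was 21.1%. P-values were adjusted by Benjamini-Hochberg over all tested loci within a comparison and called at 0.05. Standard errors and 95% intervals used the fit's moderated dispersion. The 2 genes below the filter were compared as pooled UMIs with exact intervals given the totals. Alternatives were RLE and upper-quartile scaling, no filter, a filter at a mean of 10 UMIs, DESeq2 1.42.0, limma-voom (limma 3.58.1), a fit of the compared groups alone, a replicate block, fewer Koshihikari R2 libraries, and leaving out each library. The SPL members and gene lists were chosen with earlier results of these data known. The named genes were all 10 members, the other listed genes called in any comparison with the next few by smallest p, and the 3 loci most like each of the 2 members with the most UMIs. Symbols were assigned by locus identifier. By chromosome, a RefSeq gene table of another assembly gave 7 of the 10 members a match, lacked OsSPL17 and OsSPL3, and gave OsSPL18 another chromosome.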

Additional observations from a re-analysis of the deposited data

Results flagged for a closer look

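OsSPL7 in Koshihikari R2 replicate 2 stood at 118 CPM, on 10 UMIs, farther from the other 4 libraries of its group, at 28.1 to 48.5 CPM, than their range allows for a group of 5. OsSPL16 in Koshihikari R1 replicate 5 stood at 4.46 CPM, which is 1 UMI, where the other 4 libraries had 0. Where all other libraries of a group hold 0, any count raises the flag, so the OsSPL16 flag says nothing beyond its 1 UMI. The flags were 2 of 40 member groups examined. Chance alone gives about 1 in 20, a rate that does not apply to such groups of zeros. The late against early change of TAW1 differed between the lines by a log2 interaction of 1.73 (SE 0.241, edgeR adjusted p 1.32e-07).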

How the results depend on the processing

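The fall of OsSPL12 in late Koshihikari libraries was called in all 25 alternatives run, with log2 fold changes of −1.34 to −1.10 and adjusted p-values of 0.00074 to 0.0203. At R4 against R2 in Koshihikari the count of called members was 0, and it was 1 (OsSPL12) with upper-quartile scaling and with a filter at a mean of 10 UMIs. Leaving out 1 library at a time gave 0 to 1 there, with 1 called member without Koshihikari R2 replicate 5, and the cause was not tested. Of 2519 other values, for 111 member results, 2324 kept their direction and side of the threshold, 3 became called (those of OsSPL12 just given), and 192 uncalled estimates changed sign. No result reversed. Same-numbered libraries showed little shared deviation, with 1 of 64 pairs at r over 0.1 (range −0.0552 to 0.141). Of 414 other pairs, 0 had r over 0.1 (range −0.142 to 0.0957). Low correlations of such noisy deviations cannot exclude that the numbers pair libraries. With a replicate block OsSPL12 had −1.16 late against early in Koshihikari (edgeR adjusted p 0.00606), and 1 member was called. Leaving out the single NIL-Gn1 R4 library removes its contrasts, so these have no such value. OsSPL15 at R4 against R2 lost its call in 5 of 17 alternatives, with adjusted p-values of 0.00838 to 0.160. Depth limits OsSPL16, OsSPL18 and OsSPL7 most.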

Other observations

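The summed level of all 10 SPL genes ran from 1344 to 1928 CPM over the group means. It was 1650 ± 163 CPM at R1 and 1654 ± 292 CPM at R2 in Koshihikari (n = 5 each), and 1711 ± 397 CPM at R4 and 1603 ± 255 CPM at R5 (n = 3 each). In NIL-Gn1 it was 1500 ± 255 CPM at R1 and 1559 ± 314 CPM at R2 (n = 8 each), with 1928 CPM in the R4 library and 1344 ± 104 CPM at R5 (n = 2). OsSPL13 makes up the largest part of this UMI sum.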
